A study of Mus musculus with 6 samples.

Results

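The genes described here lie around Brwd1 on distal mouse chromosome 16. They are 40 named genes, from Usp16 at one end to Zbtb21 at the other, and each was read from its single-symbol probe set on the array, the brightest one where a gene had several. All 40 were measured, out of 19938 genes with such a probe set, and 29 of them precede Brwd1 in gene order while 11 follow it. The 40 are a selection, since the array measured 114 genes between the outermost ones, Brwd1 not counted. Levels were taken in 3 pools from homozygous Brwd1 mutant mice and 3 pools from wildtype mice, each of 100 oocytes at the germinal vesicle stage, which is the arrest before the first meiotic division resumes. Both groups had a B6/C3H strain background, came from females aged 2 to 6 months and had received 5 IU of equine chorionic gonadotropin 44 h before collection. Whether different females gave each pool is not stated in the labels; p-values therefore cover only the spread between pools, which may be technical. Nor do they state which part of Brwd1 the mutation affects, or the strain of the DNA around Brwd1 in each pool, so effects of the mutation and of DNA inherited with it cannot be told apart.

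Brwd1 encodes a chromatin protein with bromodomains, which bind acetylated histone tails, and WD repeats. A mutation in a mouse line is inherited together with the DNA beside it, so neighbouring genes can be of 1 parental strain in the mutants and of either strain in the wildtype animals. That makes the neighbours a natural place to look when a mutant line on a mixed background is profiled. The stretch also corresponds to part of the human chromosome present in an extra copy in Down syndrome, and genes such as Dyrk1a, Dscam, Ets2 and Runx1 have been studied for that reason. Neighbours on a chromosome need share no function, and the 40 range from interferon receptors to splicing and purine synthesis genes.

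Brwd1 itself was at 4.41, 4.56 and 4.50 on the log2 scale in mutant pools 1, 2 and 3, against 8.91, 9.08 and 8.98 in wildtype pools 1, 2 and 3. The labels and the level of Brwd1 therefore matched in all 6 pools. All 10 oocyte markers examined averaged between 9.65 and 12.05, far above a background guide of 4.48, the 95th percentile of 1210 probe sets of olfactory and vomeronasal receptors. Markers of other cells were lower in general but not absent: 4 of 8 granulosa and cumulus markers, 2 of 5 theca and stroma markers and 5 of 8 blood, immune and endothelial markers averaged above the guide. The summed linear signal of the last list was 438 to 528 in the mutant pools and 364 to 415 in the wildtype pools. That of theca and stroma was 122 to 124 in the mutant and 111 to 117 in the wildtype pools. That of granulosa and cumulus overlapped between groups, at 648 to 750 in the mutant and 565 to 714 in the wildtype pools. In the blood, immune and endothelial list C1qb differed most, by 0.90, while Cd68 was the 1 lower in the mutant, at -0.07. The part of other cells in the differences given here was not tested.

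None of the 40 genes passed the test in the comparison of mutant with wildtype oocytes. With limma and Benjamini-Hochberg adjustment over all 23410 probe sets with a gene symbol, 0 of 40 had an adjusted p under 0.05, against 0.105% of all genes, and the lowest adjusted p among the 40 was 0.164, for Mrap. Most differences were small: 29 of 40 were under 0.25 on the log2 scale in size. The mutant minus wildtype difference was above 0 in 24 genes and below 0 in 16, with a median of 0.028, beside a median of 0.013 over all genes, of which 53.4% were above 0. Centring each array on its median left 14 members above 0 and 25 below, beside 35.5% of all genes above 0. The largest in size was Fam3b, at -2.02, where 1 mutant pool did not share the low level of the others. The other differences ran from -0.53 for Donson to 0.50 for Ripply3.

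**Figure D1:**
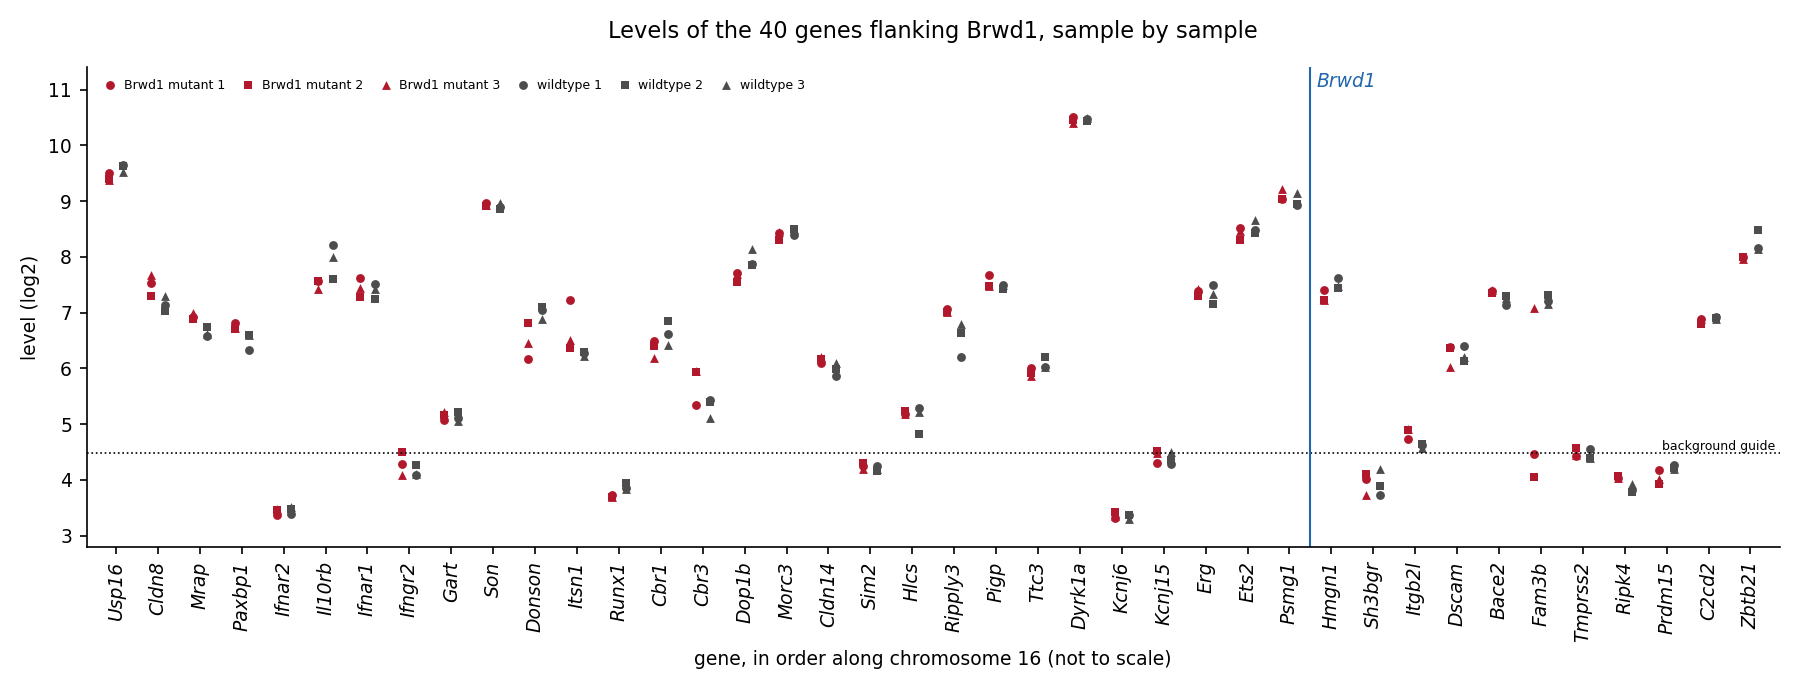
Level (log2) of each of the 40 flanking genes in gene order along chromosome 16, with the 3 mutant pools in red left of the 3 wildtype pools in grey, and marker shapes for pools 1, 2 and 3. The dotted line is the background guide of 4.48 and the blue line marks the place of Brwd1; Fam3b stands out by 2 mutant pools at or under the guide, and Dyrk1a holds the highest values.

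Levels of different probe sets are not comparable as transcript amounts, but their place relative to the guide says which genes gave signal. The probe set values averaged over the 6 pools ran from 3.35 for Kcnj6 to 10.46 for Dyrk1a. Of the 40 genes, 30 averaged above the guide, or 75%, beside 53.5% of the 114 interval genes and 63.5% of all genes. Ifnar2, Ifngr2, Runx1, Sim2, Kcnj6, Kcnj15, Sh3bgr, Ripk4 and Prdm15 were at or under it in the mean of both groups, and Tmprss2 averaged 4.46. For these 9 genes a difference between groups is one between values near background.

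Fam3b encodes a small secreted protein of the FAM3 family, known from pancreatic islets. Its level was 4.47, 4.05 and 7.09 in mutant pools 1, 2 and 3, against 7.21, 7.32 and 7.15 in the wildtype pools. Mutant pools 1 and 2 were at or under the background guide, while mutant pool 3 lay 0.06 under the lowest wildtype pool. The groups did not overlap, and yet the mutant mean of 5.20 ± 1.65 describes no single pool, against 7.23 ± 0.086 in the wildtype (SD, n = 3 each). The difference of -2.02 (SE 0.729, 95% confidence interval -3.75 to -0.29) had a limma adjusted p of 0.281. Without mutant pool 3 it was -2.97, a size that background holds down and that is given with no test, since that pool is the one that makes the split. In pools of oocytes, fewer oocytes with a transcript and less transcript per oocyte cannot be told apart.

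The split of Fam3b was measured as a gap, the larger of the 2 steps between neighbouring values when the 3 pools of a group are put in order of level. Its gap was 2.62 among the mutant pools and 0.11 among the wildtype pools. Of 19938 genes, 1 had a larger mutant gap, the defensin gene Defb8, whose wildtype pools were also far apart, with a gap of 2.20. Across the array 34 genes had a mutant gap of at least 1, and 9 of these had wildtype pools within 0.5 of each other. Fam3b was the only one of these 9 on chromosome 16, and mutant pool 3 was the lone high pool in 2 of the 9.

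Of the genes around Fam3b described here, only Bace2 was clearly above the guide, and its mutant pools were not split. The nearest measured genes, Mx1 and Mx2, which encode antiviral GTPases, were below the guide in all 6 pools, at 3.33 to 3.65 in the mutant and 3.46 to 3.69 in the wildtype pools for Mx1. Mx2 was at 3.02 to 3.20 in the mutant and 2.97 to 3.11 in the wildtype pools, so neither could show a fall of that kind. The next member before it, Bace2, a membrane protease related to the amyloid beta-secretase, gave clear signal, at 7.39, 7.36 and 7.41 in the mutant and 7.14, 7.30 and 7.27 in the wildtype pools. Its mutant pools lay within 0.05 of each other. The next member after it, Tmprss2, a serine protease of the cell surface, was at 4.42, 4.57 and 4.45 in the mutant and 4.55, 4.39 and 4.39 in the wildtype pools, close to the guide.

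**Figure D2:**
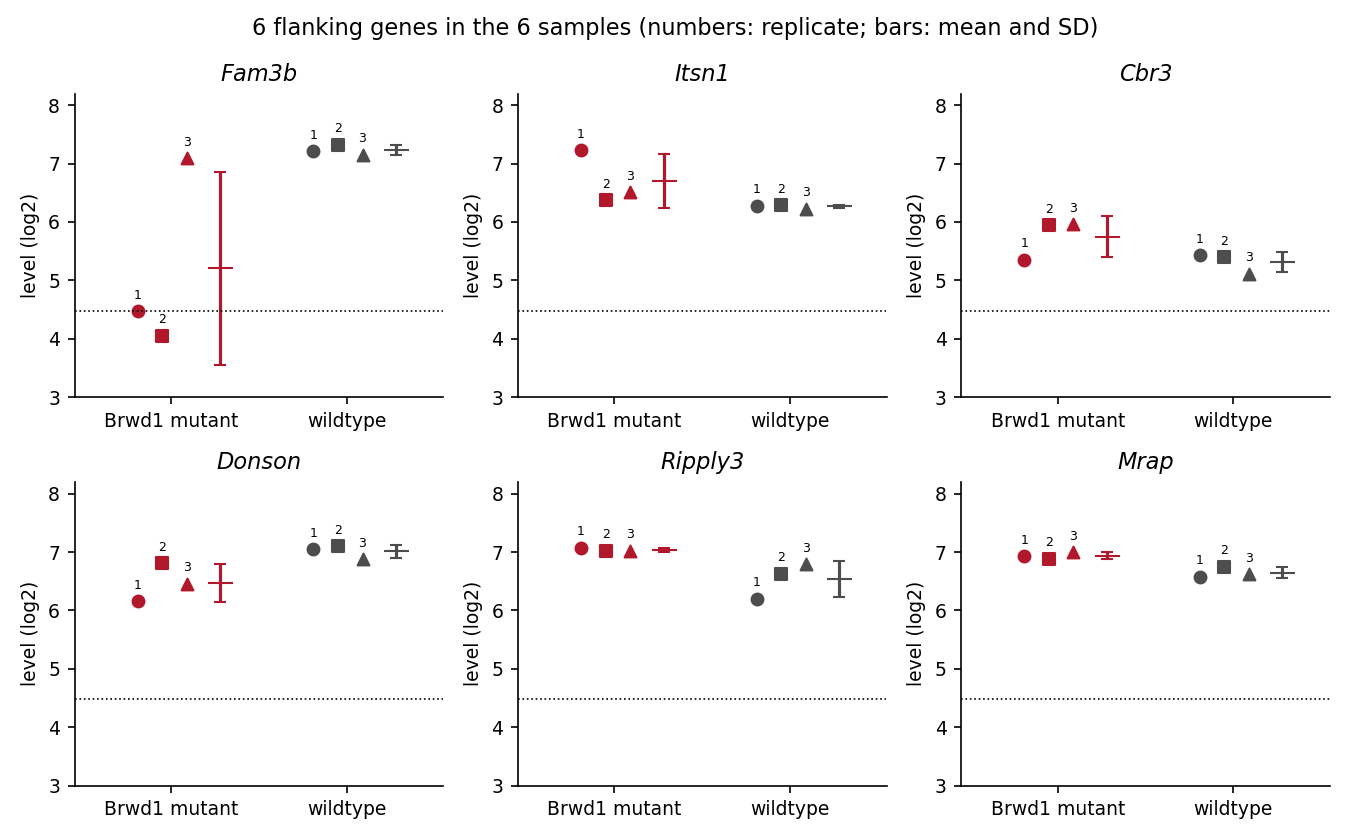
Level (log2) of 6 flanking genes in the mutant pools (red, left) and the wildtype pools (grey, right), with the pool number at each point, and the group mean and SD as a bar. Fam3b splits mutant pool 3 from pools 1 and 2, Itsn1 and Cbr3 set mutant pool 1 apart, and Ripply3 and Mrap have mutant pools close together above all wildtype pools; the dotted line is the background guide.

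A gap of at least 0.5 among the mutant pools was found in 3 of the 40 genes, or 7.5%, beside 2.15% of all genes, and among the wildtype pools in 0 of 40, beside 3.15%. The other genes besides Fam3b were Itsn1 and Cbr3. Itsn1, which encodes intersectin 1, a scaffold of endocytosis, was at 7.23, 6.37 and 6.51 in the mutant and 6.28, 6.29 and 6.23 in the wildtype pools. Here mutant pool 1 was the high one, with a gap of 0.72, and all mutant pools were above all wildtype pools. The difference was 0.44 (SE 0.210; limma, adjusted p = 0.393). Without mutant pool 1 it was 0.17, given with no test, since that pool is the one that makes the split. Cbr3, a carbonyl reductase, was at 5.35, 5.94 and 5.96 in the mutant and 5.43, 5.40 and 5.11 in the wildtype pools, so mutant pool 1 lay among the wildtype pools and the other two above them.

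The 3 split genes did not all single out the same pool. Mutant pool 3 was alone and high for Fam3b, mutant pool 1 was alone and high for Itsn1, and mutant pool 1 was alone and low for Cbr3. In the gap range of 0.3 to 0.5 lay Donson, with mutant pool 2 alone and high, and Dscam, with mutant pool 3 alone and low. Dscam, a cell adhesion molecule of neurons, was at 6.38, 6.36 and 6.03 in the mutant and 6.41, 6.13 and 6.20 in the wildtype pools, and its groups overlapped. The remaining 35 genes had a mutant gap under 0.3. Over the whole interval of 114 genes, 5 were split in the mutant pools, or 4.39%. Of the further ones, 4932438H23Rik had mutant pool 2 alone and high. Vps26c, a retromer-related sorting gene, had mutant pool 1 alone and high. It was at 6.10, 5.26 and 5.26 in the mutant and 5.78, 5.62 and 5.90 in the wildtype pools. Vps26c lies between Ttc3 and Dyrk1a, whose mutant gaps were 0.08 and 0.06.

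**Figure D3:**
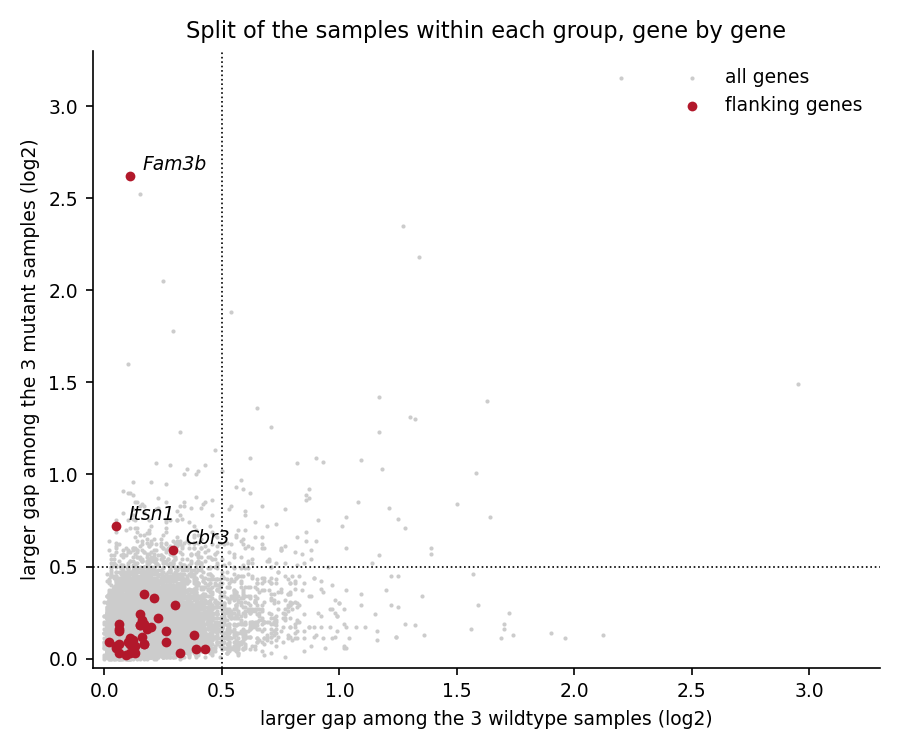
Larger gap (log2) among the 3 mutant pools against the larger gap among the 3 wildtype pools, for all 19938 genes (grey) and the 40 flanking genes (red), with dotted lines at 0.5. Fam3b has a mutant gap of 2.62 with a wildtype gap of 0.11, Itsn1 and Cbr3 lie just above the dotted line, and the other 37 flanking genes lie under it.

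At an unadjusted limma p under 0.05, 16 of the 40 genes were found, or 40%, beside 14.9% of all genes. Of these, 7 were higher in the mutant, beside 7.53% of all genes, and 9 were lower, beside 7.33%. With each array centred on its median the 16 were 5 higher and 11 lower, and the share of higher among all genes found moved from 50.7% to 23.2%. The 40 were named with earlier results of these data in view, so their share is not read as a property of the stretch. Among the other 74 genes between Usp16 and Zbtb21, 3 were found, or 4.05%. Over all 114 genes it was 19, or 16.7%, near the background share, and the rest of chromosome 16 had 82 of 533, or 15.4%. The members were also brighter, with a median level of 6.56, against 4.17 for the other 74. Among genes above the guide, 14 of 61 in the interval were found, or 23.0%, beside 19.7% of 12662 on the array. The count of 16 was 8, 10 and 14 without wildtype pool 1, 2 or 3 and 12, 10 and 7 without mutant pool 1, 2 or 3, and at an unadjusted p under 0.01 it was 1.

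**Figure D4:**
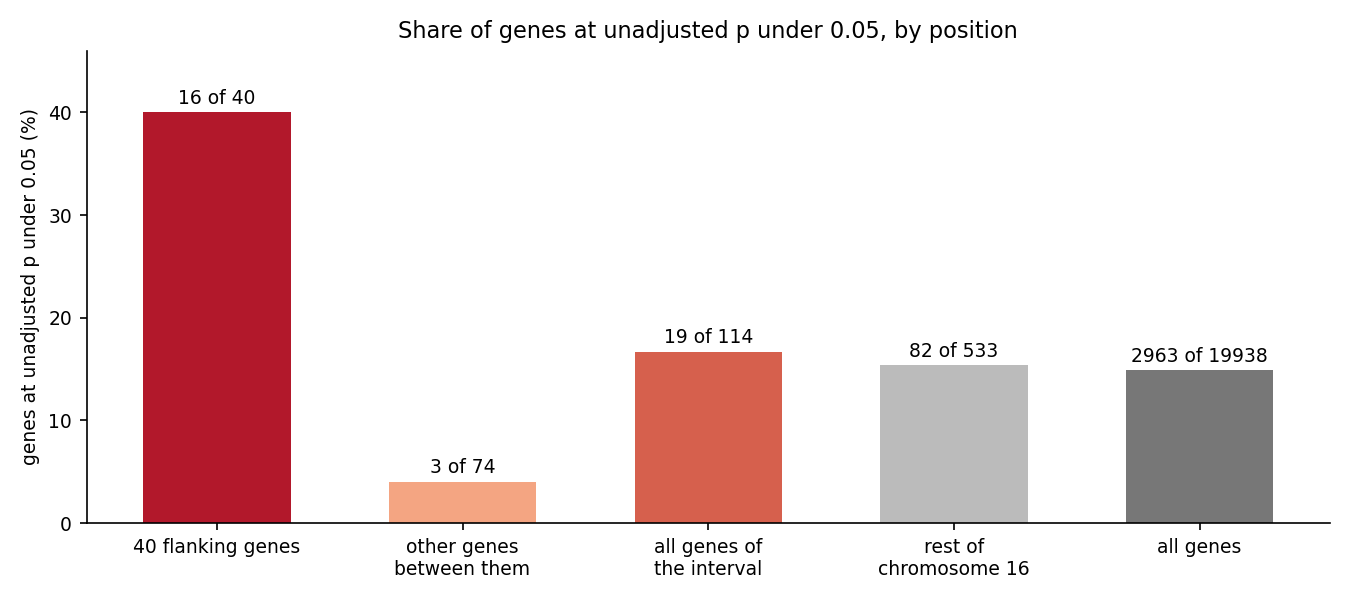
Share of genes (%) at an unadjusted limma p under 0.05 for the 40 flanking genes, the 74 other genes between them, all 114 genes of the interval, the rest of chromosome 16 and all genes, with the counts above the bars. The 40 named genes are at 40% and the genes between them at 4.05%, while the interval as a whole, at 16.7%, is near the 14.9% of all genes.

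Groups that did not overlap gave a like picture. All 3 mutant pools were above all wildtype pools in 7 of the 40 genes, beside 10.5% of all genes, and below them in 11, beside 9.33%. Over the 114 genes of the interval each direction had 12, or 10.5%. By their means, 18 of the 29 genes before Brwd1 were higher, or 62.1%, and 6 of the 11 after it, or 54.5%, beside 53.4% of all genes. With each array centred on its median these shares were 37.9% and 27.3%, beside 35.5% of all genes. No difference between the sides was tested.

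The members on either side of Brwd1 differed little in comparison with Brwd1 itself, and neither passed. Psmg1, a chaperone of proteasome assembly and the last member before Brwd1, was at 9.04, 9.04 and 9.21 in the mutant and 8.93, 8.95 and 9.15 in the wildtype pools. The groups overlapped and the difference was 0.087 (SE 0.0852). Hmgn1, a nucleosome-binding protein that loosens chromatin and the first member after Brwd1, was at 7.41, 7.22 and 7.23 in the mutant and 7.63, 7.45 and 7.48 in the wildtype pools. Each mutant pool was below each wildtype pool, by 0.04 at the closest, with a difference of -0.23 (SE 0.0809; limma, adjusted p = 0.272). Both differences were under 0.25 in size, against -4.50 for Brwd1 itself. Get1, the measured gene that follows Hmgn1, was at 6.32, 6.66 and 6.47 in the mutant and 6.95, 6.95 and 6.28 in the wildtype pools, and there wildtype pool 3 was the one apart.

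The cytokine receptor genes stand together, in the order Ifnar2, Il10rb, Ifnar1 and Ifngr2. Ifnar1 and Ifnar2 encode the subunits of the type I interferon receptor, Ifngr2 the signalling subunit of the interferon gamma receptor, and Il10rb a subunit shared by receptors of interleukin 10 and its relatives. Il10rb was at 7.57, 7.56 and 7.43 in the mutant and 8.21, 7.61 and 7.99 in the wildtype pools, lower in each mutant pool. Its difference was -0.42 (SE 0.147; limma, adjusted p = 0.277), and the wildtype pools ranged over 0.60 against 0.14 for the mutant. Ifnar1 was at 7.63, 7.28 and 7.44 in the mutant and 7.52, 7.25 and 7.42 in the wildtype pools, nearly the same, at 0.053 (95% confidence interval -0.21 to 0.31). Ifnar2 and Ifngr2 were near background in both groups, at -0.023 and 0.14. Thus 0 of 4 passed, beside 0.105% of all genes. Only Il10rb had groups that did not overlap, or 1 of 4. Among all genes, 10.5% were higher and 9.33% lower in the mutant without overlap.

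Of 11 partner and signalling genes of these receptors elsewhere in the genome, 10 were measured and 0 passed. At an unadjusted limma p under 0.05 it was 1 of 10, beside 14.9% of all genes: Il22ra1, a receptor chain that pairs with the Il10rb product, at 4.95, 5.11 and 5.27 in the mutant and 4.68, 4.63 and 4.81 in the wildtype pools. It was higher in each mutant pool, by 0.40 (SE 0.0958; limma, adjusted p = 0.167), close to the guide. Ifngr1 and Il10ra, the partner chains of Ifngr2 and Il10rb, were under the guide in all 6 pools. The kinase genes Jak1 and Jak2 were at 9.41 to 9.42 and 10.14 to 10.17 in the mutant and 9.50 to 9.62 and 10.09 to 10.13 in the wildtype pools.

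Claudins, channels and surface proteins were higher in the mutant by their means in 7 of 7 genes, beside 53.4% of all genes, with a median of 0.17, and 0 passed. The count was 4 of 7 with each array centred on its median, beside 35.5% of all genes, with Kcnj6 and Dscam then below 0 and Kcnj15 at 0. Mrap, which encodes an accessory protein that carries melanocortin receptors to the cell surface, had the lowest p of all 40 genes. It was at 6.93, 6.89 and 7.00 in the mutant and 6.58, 6.75 and 6.62 in the wildtype pools, and every mutant pool was above every wildtype pool. The difference was 0.29 (SE 0.0682; limma, adjusted p = 0.164), and it ran from 0.26 to 0.34 when single pools were left out. Cldn8, a claudin of tight junctions, was at 7.53, 7.29 and 7.68 in the mutant and 7.14, 7.03 and 7.29 in the wildtype pools, and here the lowest mutant pool equalled the highest wildtype pool. Its difference was 0.35 (SE 0.116; limma, adjusted p = 0.259). Itgb2l, an integrin beta-like chain, was at 4.73, 4.89 and 4.92 in the mutant and 4.63, 4.65 and 4.57 in the wildtype pools, just above the guide. The sum of blood, immune and endothelial markers was also higher in the mutant, and a link between them was not tested.

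The others of this set differed less. Cldn14, another claudin, was at 0.17 and overlapped between the groups. The potassium channel genes Kcnj6 and Kcnj15 were at 0.027 and 0.057, both near background. Dscam, given above, was at 0.010.

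Among 10 transcription factor and chromatin genes, 4 were higher and 6 lower in the mutant by their means, beside 53.4% of all genes higher. With each array centred on its median it was 2 and 8, beside 35.5% of all genes higher. Of the 10, 0 passed. Ripply3, a repressor that acts on T-box factors, had the largest positive difference of the 40. It was at 7.07, 7.02 and 7.02 in the mutant and 6.20, 6.63 and 6.79 in the wildtype pools, so the mutant pools lay within 0.05 of each other while the wildtype pools spanned 0.59. The difference was 0.50 (SE 0.144; limma, adjusted p = 0.221), and 0.33 without wildtype pool 1. Zbtb21, a zinc-finger repressor at the far end of the stretch, was at 8.00, 8.00 and 7.97 in the mutant and 8.16, 8.48 and 8.15 in the wildtype pools. It was lower in every mutant pool, by 0.27 on average (SE 0.0971; limma, adjusted p = 0.279), and the difference was -0.165 without wildtype pool 2. B230307C23Rik, the measured transcript that follows Zbtb21, was lower too, at 7.20, 7.15 and 6.90 in the mutant and 7.28, 7.40 and 7.50 in the wildtype pools.

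Paxbp1, a partner of paired-box factors, was at 6.81, 6.70 and 6.72 in the mutant and 6.33, 6.60 and 6.59 in the wildtype pools, a difference of 0.24 (SE 0.0880; limma, adjusted p = 0.290). All mutant pools were above all wildtype pools, and the difference was 0.15 without wildtype pool 1. Runx1, a regulator of blood formation, and Prdm15, a zinc-finger regulator, had no overlap between groups, at -0.17 and -0.19, but both lay under the guide throughout. The remaining genes were close to 0: Morc3, a nuclear ATPase, at -0.070, Ets2 and Erg, both ETS factors, at -0.097 and 0.040, and Sim2, a factor of neural development, at 0.053. Erg gave clear signal in these pools, at 7.38, 7.30 and 7.42 in the mutant and 7.49, 7.16 and 7.33 in the wildtype.

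Signalling and trafficking genes included Dyrk1a, a kinase much studied in Down syndrome. Its brightest probe set was at 10.51, 10.45 and 10.40 in the mutant and 10.48, 10.43 and 10.50 in the wildtype pools. The groups overlapped, and the difference was -0.017 (95% confidence interval -0.15 to 0.12), which changed sign under some normalizations and omissions. A second probe set of the gene was at 6.84, 7.21 and 6.90 in the mutant and 6.98, 6.96 and 6.97 in the wildtype pools. Among the other DYRK kinases, 0 of 4 passed. At an unadjusted limma p under 0.05 it was 3 of 4, beside 14.9% of all genes: Dyrk3 and Dyrk4 were higher, at 0.50 and 0.44, and Dyrk1b was lower, at -0.37.

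Dop1b, which acts in membrane traffic, was at 7.71, 7.55 and 7.70 in the mutant and 7.88, 7.86 and 8.14 in the wildtype pools. It was lower in every mutant pool, with a difference of -0.31 (SE 0.0939; limma, adjusted p = 0.229). Ripk4, a kinase of epidermal differentiation, was higher in each mutant pool by values under the guide, at 0.19. C2cd2 was at 6.88, 6.79 and 6.88 in the mutant and 6.92, 6.91 and 6.89 in the wildtype pools, without overlap although the difference was only -0.057. Sh3bgr was at 0.010.

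Genes of RNA processing, replication and ubiquitin held the largest negative difference after Fam3b. Donson, which protects replication forks, was at 6.16, 6.81 and 6.46 in the mutant and 7.05, 7.10 and 6.88 in the wildtype pools. All mutant pools were lower, the nearest by 0.07, and the difference was -0.53 (SE 0.160; limma, adjusted p = 0.224). It was -0.70 without mutant pool 2 and -0.38 without mutant pool 1. Its neighbour Son, a splicing cofactor of nuclear speckles, was at 8.96, 8.91 and 8.94 in the mutant and 8.90, 8.86 and 8.96 in the wildtype pools, with a difference of 0.030. Usp16, which removes ubiquitin from histone H2A, was at 9.50, 9.40 and 9.38 in the mutant and 9.65, 9.64 and 9.52 in the wildtype pools, a small difference of -0.18 (SE 0.0659; limma, adjusted p = 0.291) without overlap. Ttc3, a ubiquitin ligase, was at -0.15, also without overlap, and at -0.095 without wildtype pool 2.

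Among 6 enzyme and assembly genes, the carbonyl reductase neighbours Cbr1 and Cbr3 lay on opposite sides of 0. Cbr1 was at 6.49, 6.41 and 6.19 in the mutant and 6.62, 6.85 and 6.42 in the wildtype pools, a difference of -0.27 (SE 0.127; limma, adjusted p = 0.391), which was -0.16 without wildtype pool 2. Cbr3, whose pools are given above, was at 0.44 (SE 0.179; limma, adjusted p = 0.325). Both had groups that overlapped. Gart, which carries out several steps of purine synthesis, was at 5.08, 5.16 and 5.21 in the mutant and 5.11, 5.22 and 5.05 in the wildtype pools, at 0.023. The other purine synthesis genes, Ppat, Pfas, Paics, Adsl and Atic, had 0 of 5 passing, beside 0.105% of all genes. At an unadjusted limma p under 0.05 it was also 0 of 5, beside 14.9%. Hlcs, which attaches biotin to carboxylases, and Pigp, a subunit that builds membrane anchors of glycosylphosphatidylinositol, were at 0.10 and 0.067. A second, dimmer probe set of Pigp was at 0.037.

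Family members of the split and adjacent genes were read for comparison. Fam3a, a relative of Fam3b on another chromosome, was at 4.80, 4.73 and 5.22 in the mutant and 5.65, 5.54 and 5.19 in the wildtype pools. Its difference was -0.54 (SE 0.165; limma, adjusted p = 0.227). Mutant pool 3 was the highest of the mutant pools and within the wildtype range. The gap was 0.42 among the mutant and 0.35 among the wildtype pools, both under 0.5. Fam3c was steady, at 9.23, 9.08 and 9.08 in the mutant and 9.15, 9.15 and 9.18 in the wildtype pools. Of the HMGN genes, Hmgn5 was at 8.46, 8.62 and 8.54 in the mutant and 8.17, 8.19 and 8.39 in the wildtype pools, higher by 0.29 (SE 0.0815; limma, adjusted p = 0.212), while Hmgn2 and Hmgn3 overlapped between groups. None of these family members passed.

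**Figure D5:**
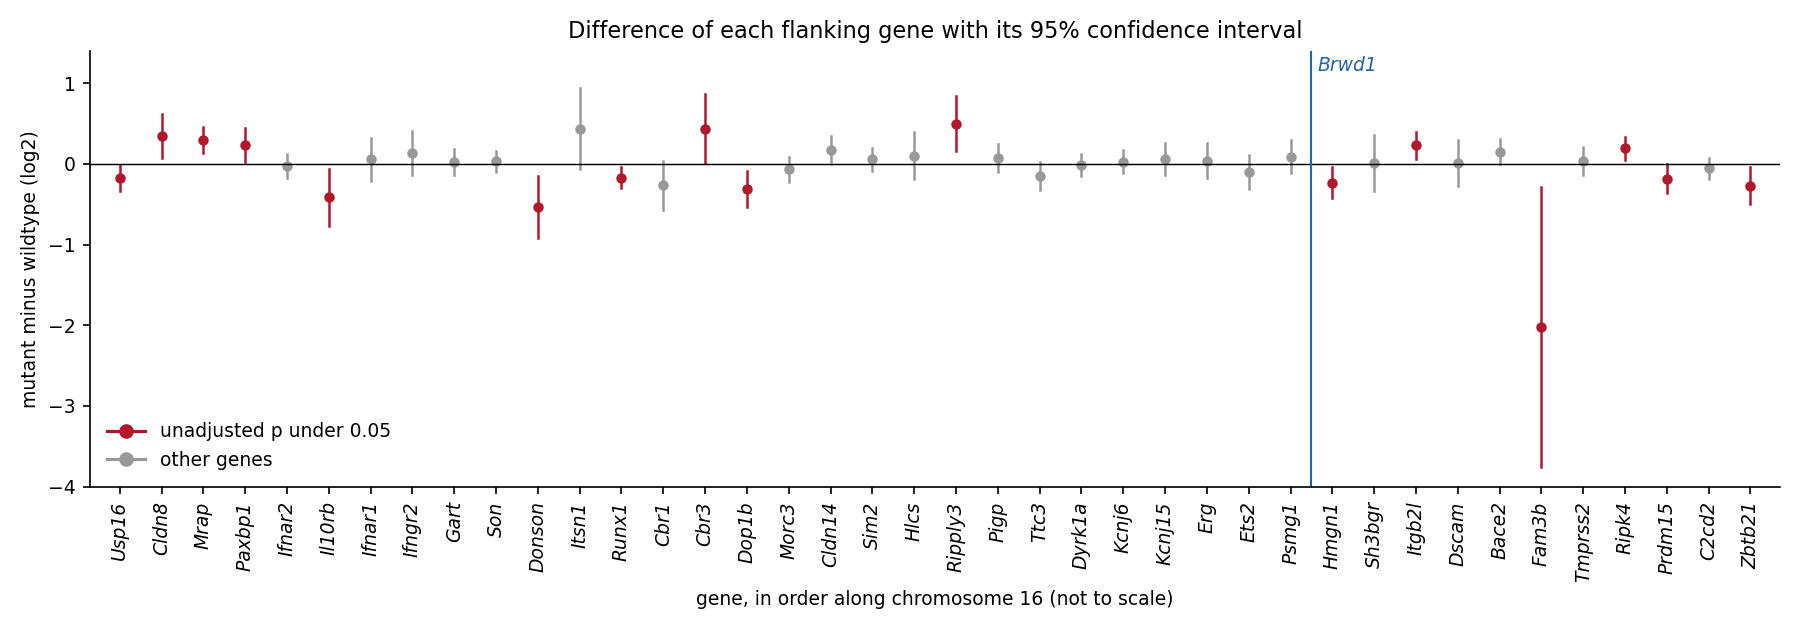
Mutant minus wildtype difference (log2) of each flanking gene with its 95% confidence interval from limma, in gene order along chromosome 16, red at an unadjusted p under 0.05 and grey otherwise. Except for Fam3b at -2.02, the points lie between -0.53 for Donson and 0.50 for Ripply3, and the blue line marks the place of Brwd1.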

How the data were processed

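The 6 samples were hybridised to 1 Affymetrix array each. Per the labels' protocols, 1 ng of total RNA per pool was amplified and labelled with biotin. The deposited values are log2 values made with Affymetrix Expression Console 1.1 and RMA, per the submitters' processing notes. Such values cannot show a change of total RNA per oocyte, and fold differences near background are compressed. No genome build is named in the labels used, and gene order came from the RefSeq gene table of GRCm38.p6 and no coordinates are printed. Of 35556 probe sets, 23410 carried a symbol in the platform annotation and 21789 a single one.

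Mutant minus wildtype was fitted over all 6 arrays with limma 3.58.1 in R 4.3.3, with no covariates and no filter on level. The fit was tested on simulated data. Splits and groups without overlap are descriptions with no test. The number of arrays limits the precision. The members, the lists of roles, related genes and markers, and the rule to describe genes at an unadjusted p under 0.05 or with a gap of at least 0.5 were chosen with earlier results of these data known. Alternatives were other normalizations, filters, variance settings, array weights, the mean of a gene's probe sets, a replicate block, other thresholds and single omissions.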

Additional observations from a re-analysis of the deposited data

How the results depend on the processing

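No member passed the adjusted threshold in any setting that kept all 6 pools, an adjusted p under 0.10 included. Omissions of single pools gave 0 to 1, the 1 being Fam3b without mutant pool 3, the pool that makes its split, so this pass supports nothing. The 16 genes at an unadjusted p under 0.05 numbered 15 to 18 under settings that kept all 40 members, where 13.2% to 16.3% of all genes were found, and 12 of the 29 members above the median level, where it was 19.2%. They numbered 1 at an unadjusted p under 0.01, and 7 to 14 with 1 pool left out, where it was 11.3% to 15.5% of all genes. The replicate numbers do not pair the pools (correlations of deviations of same-numbered pools from -0.031 to 0.036), and the replicate block gave 16. The median difference of 0.028 has no stable sign: centring on array medians made it -0.028, with all genes at -0.043, and with 1 pool left out it was -0.013 to 0.032. Mutant splits numbered 5 at a gap of 0.3, 1 at a gap of 1, 4 by a range of at least 0.5, and 1 to 3 with 1 pool left out. Wildtype splits numbered 5 at a gap of 0.3, 0 at a gap of 1 and 2 by a range of at least 0.5. With 1 pool left out they numbered 0 to 1. At a gap of 1 it was 34 of all 19938 genes among the mutant and 64 among the wildtype pools. Shares of all genes at the other split settings are not given here, so these counts are not read as a trait of the members. Restricting to genes above the guide, chosen after seeing the data, left 13 of 30 members, beside 19.7% of such genes, and 3 splits, beside 2.9%.

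Signs turned in some setting for 13 genes, none of them over 0.10 in size. After quantile normalization Gart was at -0.032, Sim2 at -0.0011, Dyrk1a at 0.0022, Sh3bgr at -0.034 and Tmprss2 at -0.024. After cyclic loess Gart was at -0.039, Sim2 at -0.0040, Dyrk1a at 0.015, Kcnj15 at -0.0081, Sh3bgr at -0.034 and Tmprss2 at -0.030. After median centring Ifnar1 and Sim2 were at -0.0033, Gart at -0.033, Son at -0.027, Kcnj6 at -0.030, Erg at -0.017, Sh3bgr and Dscam at -0.047 and Tmprss2 at -0.020. With array weights Dscam was at -0.023. With 1 pool left out Ifnar2 ran from -0.062 to 0.0083, Ifnar1 from -0.037 to 0.14, Gart from -0.015 to 0.070, Hlcs from -0.043 to 0.19, Dyrk1a from -0.045 to 0.010, Kcnj6 from -0.0050 to 0.050, Erg from -0.043 to 0.12, Sh3bgr from -0.093 to 0.14, Dscam from -0.052 to 0.12 and Tmprss2 from -0.0083 to 0.090.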
